A study of Mus with 9 samples.

Results

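The thick ascending limb, the distal tubule and the collecting duct of the kidney were followed here through 10 genes that mark them: Umod of the thick ascending limb, Calb1 and Trpm6 of the distal convoluted and connecting tubule, the water channel genes Aqp2, Aqp3 and Aqp4 with the vasopressin receptor gene Avpr2 of the collecting duct, and Scnn1a, Scnn1b and Scnn1g, which encode the 3 subunits of the epithelial sodium channel. They were taken by gene symbol and were found among the 54532 genes of the expression table. The test of differences covered 15902 genes with enough reads, and 9 of the 10 were among them. Avpr2 was not.

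The data came from kidney RNA, and the study's methods do not state which part of the kidney was sequenced. Male C57BL/6 mice gave 9 libraries, of 3 mice in each of 3 groups. Every mouse had had 1 kidney removed at 18 months of age. The 18 mo group was killed 1 week after that operation and received no injections. The 21 mo group was injected intraperitoneally with saline for 12 weeks, and the 21 mo/O304 group with O304, a small molecule that activates the energy-sensing kinase AMPK, at 10 mg/kg/day for the same 12 weeks. The 21 mo against 18 mo comparison therefore combines age with time after the operation and with the injections, which cannot be told apart, and no unoperated mouse was among the samples.

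The thick ascending limb takes salt from the tubular fluid without water and so builds the concentration gradient of the medulla. The distal convoluted and connecting tubules then adjust sodium, magnesium and calcium. In the collecting duct, vasopressin acts through its receptor to move aquaporin-2 into the apical membrane of principal cells, water leaves the cell through aquaporin-3 and aquaporin-4, and aldosterone raises sodium uptake through the epithelial sodium channel.

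The libraries held 15636378 to 18396725 counts assigned to genes, so that 1 count corresponded to 0.0458 to 0.0669 CPM, a count relative to the size of its library, scaled here by TMM to correct for differences in library composition. The 21 mo group was the most uneven: its biological coefficient of variation was 44.1%, against 18.0% at 18 mo and 20.6% in 21 mo/O304. Within it, replicates 2 and 3 stood apart. The summed CPM of 6 tubule injury genes was 1305, 12252 and 14080 at 21 mo, against 659 to 1048 in the other 6 mice, and the summed CPM of 10 proximal tubule genes was 15683, 7445 and 1961, against 14428 to 17665. In bulk tissue, fewer cells of a type and less RNA per cell cannot be told apart. The same holds for every level given here. Each library is taken here as 1 mouse, but the labels do not say that the replicates of a group came from separate animals, and the p-values measure only the spread between these samples, which may be technical.

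Per length of transcript, Umod was by far the most abundant of the 10 genes, with a mean of 993 FPKM (which corrects a fragment count for gene length and library size) over the 9 libraries. Aqp2 followed at 113 FPKM, Calb1 at 66.2, Aqp3 at 39.7, Scnn1a at 23.9, Scnn1b at 12, Scnn1g at 11, Aqp4 at 7.46 and Trpm6 at 2.54 FPKM. Avpr2, listed at 0.0192 FPKM, is left out of the order for a reason given with its counts. In this order, Umod lay above Aqp2 and Scnn1a above Scnn1b in 9 of 9 libraries. Aqp2 lay above Calb1, and Aqp4 above Trpm6, in only 5 of 9, and Scnn1b above Scnn1g, and Scnn1g above Aqp4, in 6 of 9. Those neighbours did not differ beyond the spread of the libraries.

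**Figure D1:**
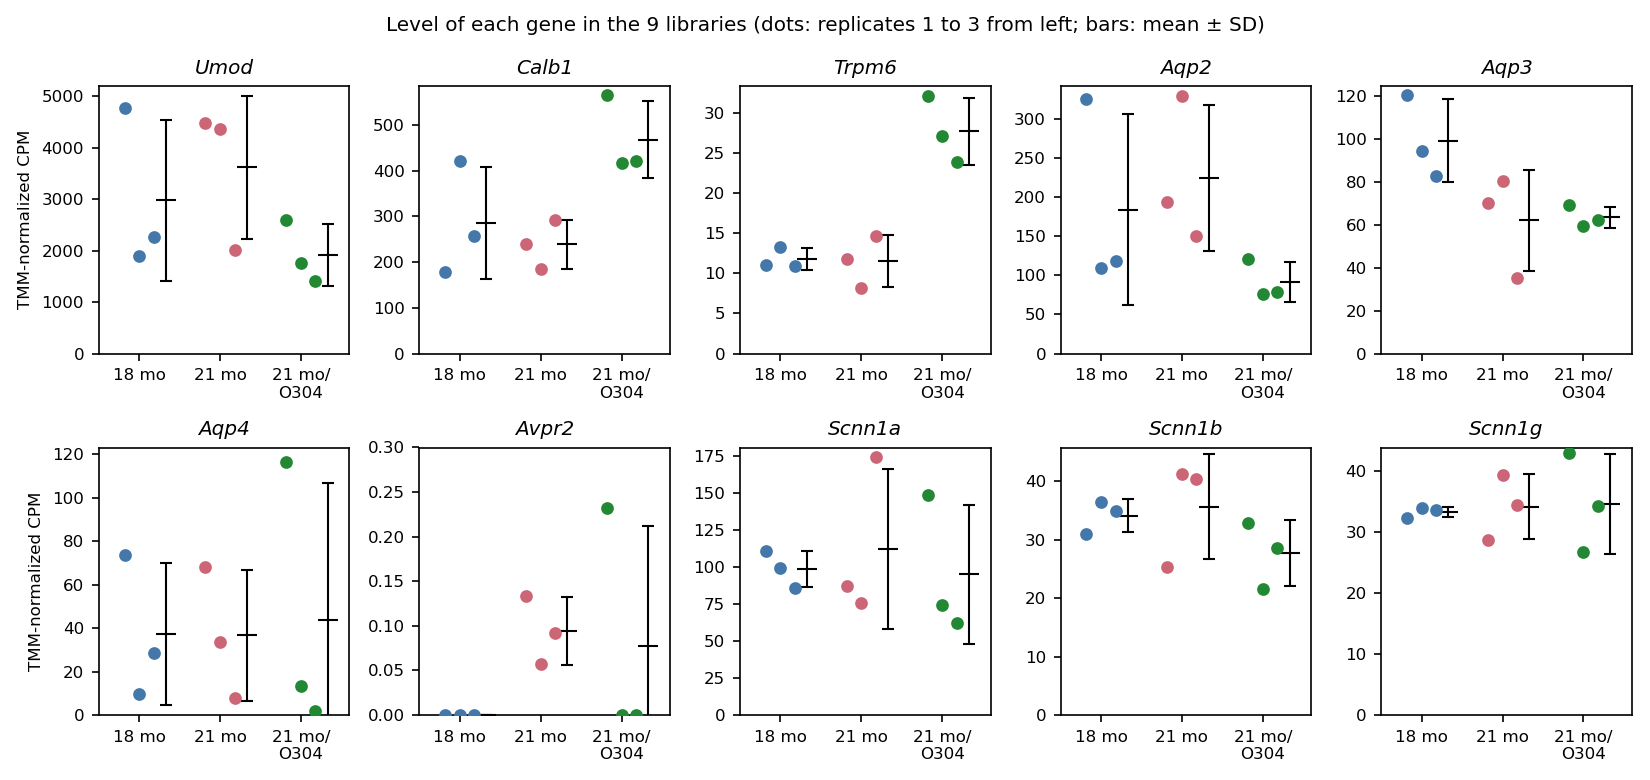
Level of each of the 10 genes in TMM-normalized CPM on a linear axis from 0, with dots for replicates 1 to 3 of each group and bars for the group's mean ± SD (n = 3 mice). Trpm6 lay between 23.9 and 32.2 CPM in the O304 mice and between 8.13 and 14.7 CPM in the other 6, whereas Aqp4 covered 1.78 to 116 CPM within the O304 group alone.

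Of the 9 genes tested, 0 passed the threshold of an adjusted p of 0.05 in any of the 3 comparisons with edgeR's quasi-likelihood test and Benjamini-Hochberg adjustment. Few genes of the table did: 0.0189% between 21 mo and 18 mo (3 genes), 0% between 21 mo/O304 and 21 mo, and 0% between 21 mo/O304 and 18 mo. At an unadjusted p under 0.05, the counts among the 9 were 1, 3 and 2, and the background shares over all genes tested were 26.1%, 20.7% and 9.66%. The groups' libraries did not overlap for 1, 3 and 2 of the 9, against 28.8%, 21.3% and 26.5% of all genes tested. DESeq2 called 0, 1 and 1 of the 9, each time Trpm6, and its shares over all genes with an adjusted p were 14.3%, 6.16% and 1.61%. With 3 mice against 3, an exact permutation test of a single gene cannot give a two-sided p below 0.1.

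**Figure D2:**
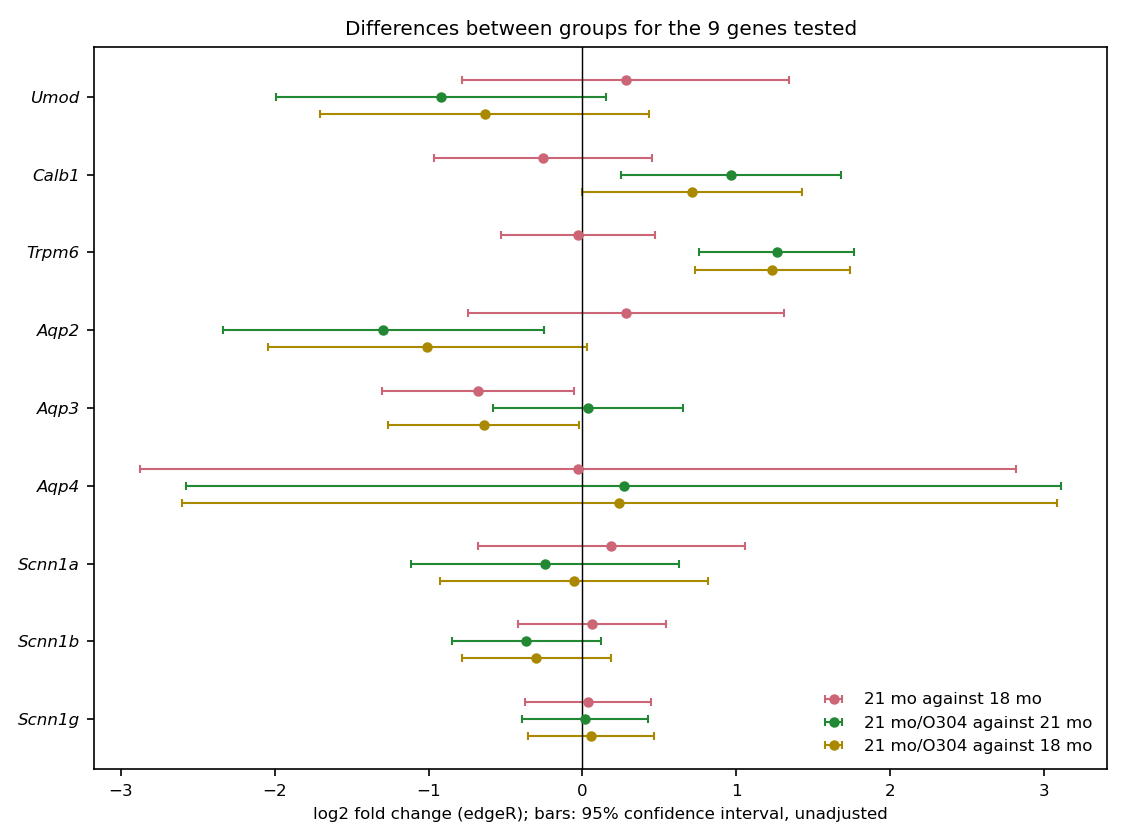
The log2 fold change of CPM from edgeR for the 9 genes tested, in each of the 3 comparisons, with 95% confidence intervals that are not adjusted for the number of genes. The Trpm6 intervals for O304 lie between 0.73 and 1.77, and those of Aqp4 reach from below -2 to above 2.

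Umod encodes uromodulin, the protein that thick ascending limb cells secrete into the urine. Its gene lies on the minus strand at chr7:119462711-119479282 (GRCm38). Umod stood at 4767, 1886 and 2271 CPM at 18 mo, at 4479, 4360 and 2008 CPM in the 21 mo group and at 2586, 1752 and 1404.5 CPM with O304. The 3 highest libraries were 18 mo replicate 1 and 21 mo replicates 1 and 2, and all groups overlapped. The group means were 2975 ± 1564, 3616 ± 1394 and 1914 ± 607 CPM (SD, n = 3). The log2 fold change was 0.28 (SE 0.47) between 21 mo and 18 mo and -0.92 (SE 0.47) between 21 mo/O304 and 21 mo, with edgeR adjusted p = 0.727 and 0.291.

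Umod and the sodium-potassium-chloride cotransporter gene Slc12a1, the transporter on which salt uptake in this segment depends, had almost the same profile: across the 9 libraries their log2 CPM correlated with r = 0.98, the highest among 13915 protein-coding genes compared. This is a description over 9 libraries that share 3 groups. Slc12a1 was measured at 2239, 519 and 599 CPM, then at 1546, 1396 and 631 CPM, and with O304 at 885, 473 and 381 CPM. Next after Slc12a1 in likeness to Umod came Ghrhr, Reln, Sall1 and Pcsk6, each with r = 0.95. Ghrhr rests on few counts, with a mean of 0.536 CPM over the 9 libraries and 0.137 CPM with O304.

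Of 12 further thick ascending limb genes, 11 were tested, and 0 were called in either direction in any comparison by edgeR. Between 21 mo and 18 mo, 6 were higher and 5 lower (median 0.09), with 1 up and 1 down at an unadjusted p under 0.05. The share over all genes tested was 26.1% in that comparison and 20.7% with O304 against 21 mo. With O304 against 21 mo, 6 were higher and 5 lower, the median log2 fold change being 0.01 against -0.02 over all genes tested, and 0 up and 2 down had an unadjusted p under 0.05. With O304 against 18 mo, 1 was higher and 10 lower (median -0.33). These medians moved with single libraries: from 0.09 to -0.23 without 18 mo replicate 2 and to 0.51 without 18 mo replicate 1, from 0.01 to -0.50 without 21 mo/O304 replicate 1, and from -0.33 to -0.075 without 18 mo replicate 1 and to -0.54 without 21 mo/O304 replicate 1. The 2 lower with O304 than at 21 mo were the tight junction genes Cldn16 and Cldn19, through whose proteins the segment lets magnesium and calcium pass between cells, and DESeq2 called 2 genes of the list lower. DESeq2's share over all genes in that comparison was 6.16%. Cldn16 was measured at 13.2, 9.37 and 9.84 CPM at 18 mo, 12.2, 18.1 and 19.1 CPM at 21 mo and 8.32, 6.08 and 8.40 CPM with O304. Its O304 libraries lay below all of the other 6, and its log2 fold change against 21 mo was -1.12 (SE 0.24, edgeR adjusted p = 0.175). Cldn19 lay at 25.0 to 62.9 CPM at 21 mo and at 9.42 to 17.7 CPM with O304, a log2 fold change of -1.99 (SE 0.56, edgeR adjusted p = 0.175). At 18 mo it was measured at 59.3, 15.9 and 18.3 CPM, so that 18 mo replicates 2 and 3 lay near the O304 range. Bsnd, the gene of barttin, had a log2 fold change of -0.48 between 21 mo and 18 mo and 0.28 with O304 against 21 mo, and neither passed.

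Calb1 encodes calbindin-D28K, which carries calcium through the cells of the distal convoluted and connecting tubule, and lies at chr4:15881264-15908064. Calb1 was measured at 178, 420 and 258 CPM at 18 mo, at 239, 186 and 293 CPM at 21 mo and at 565, 417 and 421 CPM with O304. All 3 O304 mice lay above all 3 mice of the 21 mo group, and 18 mo replicate 2 lay within the O304 range. The log2 fold change with O304 was 0.97 against 21 mo (SE 0.32, edgeR adjusted p = 0.182) and 0.71 against 18 mo (SE 0.32, edgeR adjusted p = 0.517). Between 21 mo and 18 mo it was -0.26 (SE 0.31).

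Trpm6 encodes the apical channel through which magnesium enters the distal convoluted tubule cell, and lies at chr19:18749983-18892510. It gave the clearest difference of the 9 genes. Trpm6 was measured at 11.1, 13.3 and 11 CPM at 18 mo, at 11.8, 8.13 and 14.7 CPM at 21 mo and at 32.2, 27.2 and 23.9 CPM with O304. The lowest O304 mouse lay above the highest of the other 6, and the 18 mo range lay within that of the 21 mo group. O304 mice had a 2.40-fold higher level than 21 mo mice, a log2 fold change of 1.26 (95% confidence interval 0.76 to 1.77), with an unadjusted p of 0.000303 and an adjusted p of 0.175 in edgeR. Against 18 mo the fold was 2.35, a log2 fold change of 1.23 (interval 0.73 to 1.74), with an adjusted p of 0.323 in edgeR. DESeq2 gave the same sizes, 1.27 and 1.23, with adjusted p = 0.000236 and 0.000816, so the call rests on the choice of tool, whereas the order of the libraries does not. Over all alternatives tried, the log2 fold change stayed between 0.93 and 1.74 against 21 mo and between 0.89 and 1.34 against 18 mo. The difference between 21 mo and 18 mo was -0.03 on the log2 scale, with an interval from -0.53 to 0.47. The Trpm6 counts behind these values were 143 to 553 per library. Adipocyte genes were also highest in the O304 libraries, with a summed CPM over 8 genes of 407, 142 and 328 against 38.3 to 132.5 in the other 6 mice, and the adipocyte markers Adipoq and Plin1 stood at 21.6, 1.97 and 15.1 CPM and at 12.6, 1.13 and 5.35 CPM. Their part in the Trpm6 and Calb1 values was not tested.

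Calb1 and Trpm6 also moved together across mice, with r = 0.88 over the 9 libraries, and Trpm6 was the 5th most like Calb1 of 13915 genes, after Cluap1, Rtl8b, Slc25a25 and Polr2g. Their ratio was not constant. The FPKM ratio of Calb1 to Trpm6 lay at 27.1, 30.7 and 26.8 at 21 mo and at 23.6, 20.6 and 23.7 with O304, so that Trpm6 was higher relative to Calb1 in all 3 O304 mice than in all 3 of the 21 mo group (exact permutation p = 0.1, adjusted 0.42 over 21 ratio comparisons). The 18 mo ratios of 21.6, 42.4 and 31.6 overlapped both ranges. For the levels of single genes, the O304 and 21 mo libraries did not overlap in 21.3% of all genes tested.

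A list of 16 further distal convoluted and connecting tubule genes included 0 called by edgeR in any comparison. Between 21 mo and 18 mo, 14 of 16 were lower, the list's median log2 fold change being -0.53 against 0.03 over all genes tested, and 1 up and 7 down had an unadjusted p under 0.05. With O304, 14 of 16 were higher than at 21 mo, with a median of 0.69 against -0.02, and 8 up and 1 down had an unadjusted p under 0.05. DESeq2 called 4 lower in the first and 5 higher in the second. Over all genes, the shares were 26.1% and 20.7% at an unadjusted p under 0.05, and 14.3% and 6.16% for DESeq2's calls. These comparisons share the 21 mo mice. Against 18 mo, 10 were higher with O304 and 6 lower, with a median of 0.32 against 0.00, and 0 had an unadjusted p under 0.05. Without 21 mo/O304 replicate 1 that median was 0.059.

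Emx1, a transcription factor gene, was measured at 48.8, 51.0 and 45.4 CPM at 18 mo, 32.2, 16.7 and 12.8 CPM at 21 mo and 51.0, 39.7 and 37.6 CPM with O304. Klhl3, whose protein directs the WNK kinases to degradation and so restrains salt uptake, was measured at 41.7, 53.7 and 55.9 CPM, then 43.4, 22.4 and 12 CPM, and with O304 at 68.2, 67.0 and 63.2 CPM. For both genes, 21 mo replicates 2 and 3 were the lowest libraries, the same mice in which the injury genes were highest and the proximal tubule genes lowest. Klk1, the gene of tissue kallikrein, had a log2 fold change of 0.98 with O304 against 21 mo (SE 0.26, edgeR adjusted p = 0.175), and Fxyd2, a regulatory subunit of the sodium pump, 0.57 (SE 0.26, edgeR adjusted p = 0.255). Slc12a3, the thiazide-sensitive sodium chloride cotransporter gene, was outside the rule for named genes and is given because it defines the segment. It was measured at 624, 880 and 786 CPM at 18 mo, 565, 340 and 244 CPM at 21 mo and 815, 772 and 694 CPM with O304. Without 21 mo replicate 3, the count of genes lower at 21 mo than at 18 mo was 12 of 16 and the count higher with O304 was 15 of 16. Without 21 mo replicate 1, edgeR called 7 lower and 1 higher in the first comparison and 9 higher and 1 lower in the second. That fit also called 4186 and 3808 genes of the whole table, so these calls are not particular to the list.

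S100g, another calcium carrier, and Trpv5, the apical calcium channel, belong to the list and were picked after their values were seen. S100g was measured at 264, 475 and 529 CPM, then 159, 182 and 530 CPM, and with O304 at 752, 480 and 666 CPM. Trpv5 was highest in the 21 mo mice with high injury genes, at 13.0, 22.8 and 40.1 CPM, against 8.67, 15.4 and 14.4 CPM at 18 mo and 21.5, 16.3 and 18.0 CPM with O304.

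**Figure D3:**
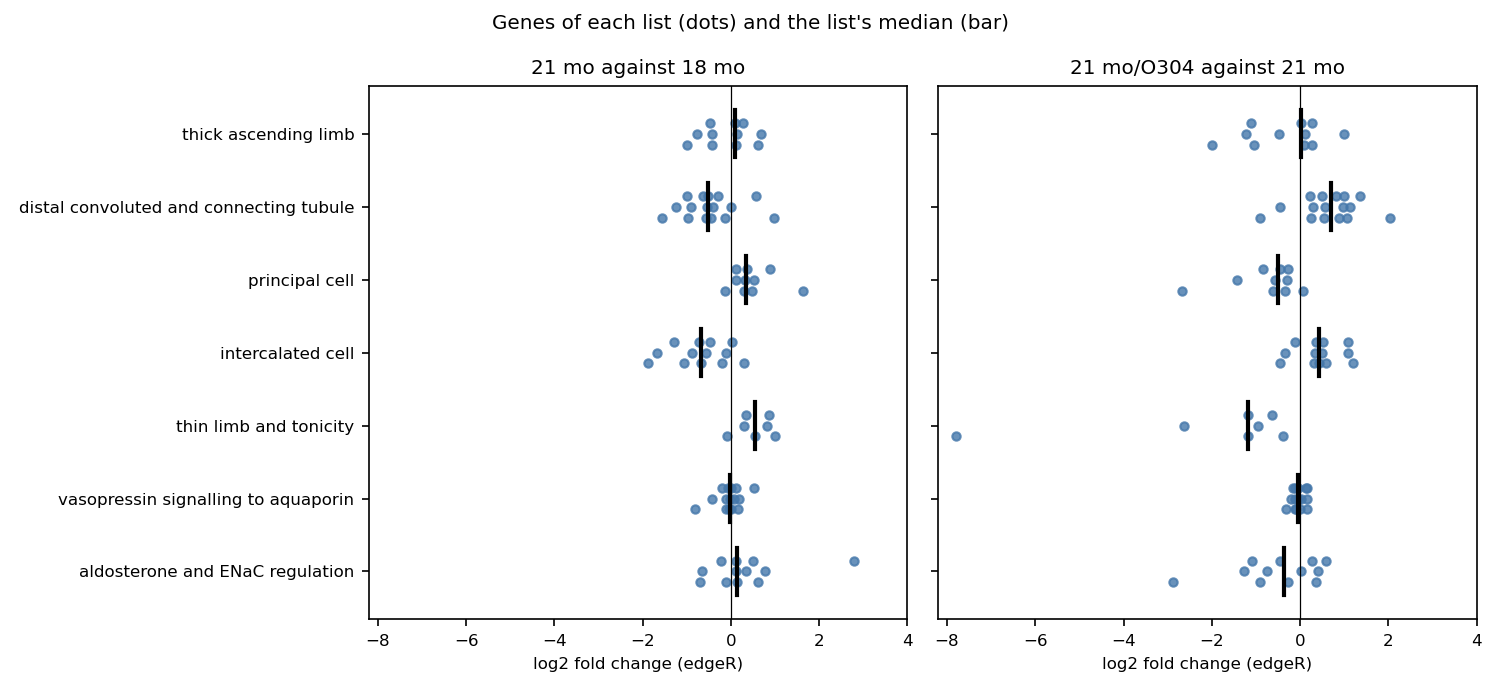
The log2 fold change (edgeR) of each tested gene of 7 lists, none of which contains the 10 genes themselves, with a bar at the list's median, for 21 mo against 18 mo (left) and 21 mo/O304 against 21 mo (right). The median of the distal convoluted and connecting tubule list lies at -0.53 on the left and at 0.69 on the right, and that of the principal cell list at 0.35 and -0.51.

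Aqp2, the gene of the vasopressin-regulated water channel of principal cells, lies at chr15:99579055-99584547. Aqp2 was measured at 325, 109 and 118 CPM at 18 mo, at 193, 328 and 151 CPM at 21 mo and at 120, 75.7 and 78.2 CPM with O304. All O304 mice lay below all 21 mo mice, but 18 mo replicates 2 and 3 lay at the level of the O304 group, and 18 mo replicate 1 at the level of the highest 21 mo mouse. The log2 fold change with O304 was -1.29 against 21 mo (SE 0.46, interval -2.34 to -0.25, edgeR adjusted p = 0.192) and -1.01 against 18 mo (SE 0.46, edgeR adjusted p = 0.527). Between 21 mo and 18 mo it was 0.29 (SE 0.45), and 0.98 without 18 mo replicate 1.

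Aqp2 and Umod, which belong to different segments, had correlated levels over the 9 libraries (r = 0.92), and the ratio of their FPKM stayed between 6.82 and 11.9 in all of them. Genes with a profile like that of Aqp2 included Ppp1r9a, Srgap3, Ak7 and Tenm2, with r from 0.96 to 0.98. Genes of the thin limb and of the response to high tonicity, taken as a sum, moved with both (r = 0.87 with Umod and 0.92 with Aqp2). Single genes of the list differed in profile: Akr1b3 was highest in 21 mo replicate 3, at 139 CPM, against 53.5 CPM in 18 mo replicate 1. The summed CPM of 7 such genes was 665, 250 and 276 at 18 mo, 561, 759 and 531 at 21 mo and 426, 276 and 228 with O304. Slc14a2, the urea transporter gene of the inner medulla, was present in some libraries and all but missing from others, at 61.7, 0 and 0 CPM at 18 mo, 1.67, 60.2 and 50.6 CPM at 21 mo and 0.116, 0 and 0.382 CPM with O304. The libraries at 0 allow up to 0.170 to 0.185 CPM (3 counts, counting error only). The 3 libraries with Slc14a2 above 50 CPM came from 2 groups, and 2 of them were the highest of the 9 for Aqp2. The third, 21 mo replicate 3, had Aqp2 at 151 CPM and Umod at 2008 CPM. Both were higher in 21 mo replicate 1, at 193 and 4479 CPM, where Slc14a2 was 1.67 CPM.

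When the log2 summed level of that list was added to the fit as a covariate, a step added after the data were seen, the Aqp2 difference between 21 mo/O304 and 21 mo went from -1.29 to -0.11 and that of Umod from -0.92 to 0.03, while Trpm6 went from 1.26 to 1.19 and Calb1 from 0.97 to 0.56. The list's sum was 531 to 759 CPM at 21 mo and 228 to 426 CPM with O304, without overlap. The covariate was therefore confounded with treatment, and it already moved with Aqp2 and Umod over the same libraries. This fit cannot separate the covariate from O304, and no conclusion is drawn from these changes. Of the 7 genes, 6 were higher at 21 mo than at 18 mo (median log2 fold change 0.54), with 0 up and 0 down at an unadjusted p under 0.05. That median was 1.59 without 18 mo replicate 1 and 0.28 without 18 mo replicate 2. All 7 were lower with O304 than at 21 mo (median log2 fold change -1.17), and 0 up and 1 down had an unadjusted p under 0.05. The shares over all genes tested in these comparisons were 26.1% and 20.7%. Cryab, a small heat shock protein gene, had -1.18 (SE 0.62) and Nfat5, the transcription factor gene of the tonicity response, -0.39 (SE 0.20), and neither passed. How much medulla each tissue sample held was not tested.

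**Figure D4:**
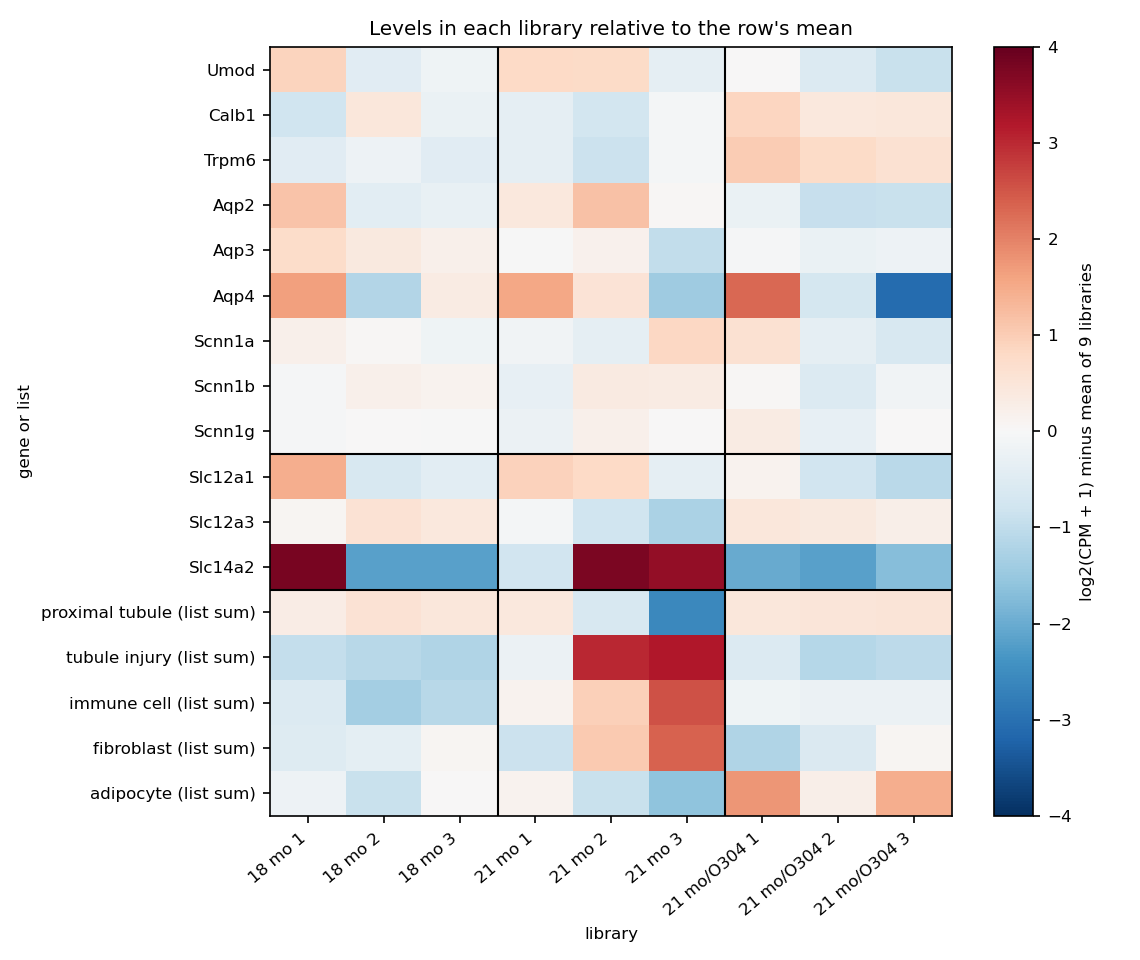
Levels in each of the 9 libraries as log2(CPM + 1) minus the mean of the row over the 9 libraries, for the 9 genes tested (top), 3 reference genes of the segments (middle) and summed marker lists of other cells (bottom). Slc14a2 stands out in 18 mo replicate 1 and 21 mo replicates 2 and 3, Umod and Aqp2 are both high in 18 mo replicate 1, and the injury, immune and fibroblast sums are high in 21 mo replicates 2 and 3.

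Aqp3, the basolateral exit channel of principal cells (chr4:41092722-41098183), did not follow Aqp2. Aqp3 was measured at 121, 94.5 and 82.9 CPM at 18 mo, at 70.2, 80.5 and 35.5 CPM at 21 mo and at 69.1, 59.6 and 62.1 CPM with O304. The 18 mo mice lay above all 6 older mice, with a narrow gap to 21 mo replicate 2. The log2 fold change was -0.68 between 21 mo and 18 mo (SE 0.27, edgeR unadjusted p = 0.0357, adjusted 0.163), -0.64 between 21 mo/O304 and 18 mo (SE 0.27, edgeR adjusted p = 0.505) and 0.04 between 21 mo/O304 and 21 mo (SE 0.27, interval -0.58 to 0.66). The lowest level, 35.5 CPM, belonged to 21 mo replicate 3, the library with the least proximal tubule RNA.

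The FPKM ratio of Aqp2 to Aqp3 was accordingly highest at 21 mo. It was 3.47, 1.48 and 1.84 at 18 mo, 3.55, 5.26 and 5.47 at 21 mo and 2.24, 1.64 and 1.62 with O304. The 21 mo mice lay above both other groups, with means of 4.76 ± 1.05 against 2.26 ± 1.06 and 1.83 ± 0.35 (SD, n = 3, exact permutation p = 0.1 for each, adjusted 0.42). The gap between 21 mo replicate 1, at 3.55, and 18 mo replicate 1, at 3.47, was narrow. For the levels of single genes, a lack of overlap held for 28.8% of all genes tested between 21 mo and 18 mo. It held for 21.3% between 21 mo/O304 and 21 mo.

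Aqp4, the other basolateral water channel, on chromosome 18, was the most variable of the 9. Aqp4 was measured at 73.4, 9.61 and 28.5 CPM at 18 mo, at 68.2, 33.7 and 7.83 CPM at 21 mo and at 116, 13.5 and 1.78 CPM with O304. Every group spanned a wide range, replicate 1 was the highest mouse of each, and the groups overlapped fully. The 95% interval of the log2 fold change with O304 against 21 mo ran from -2.58 to 3.11, so differences of several fold in either direction were not detectable with 3 mice per group.

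Avpr2, the gene of the V2 vasopressin receptor through which the hormone acts on the collecting duct, gave almost no counts: 0, 0 and 0 at 18 mo, 2, 1 and 2 at 21 mo and 4, 0 and 0 with O304. Its whole span at chrX:73892102-73895502 is covered by L1cam and Arhgap4 on the other strand, with 298 to 1396 and 48 to 105 counts per library. The strand setting of the read counting was not given in the sources used here, and reads that overlap several genes are often left uncounted, so the level of Avpr2 cannot be read from these counts. No fold change is given.

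The 15 genes of the pathway from the vasopressin receptor to aquaporin-2 included 0 called by edgeR and, between 21 mo and 18 mo, 1 up and 2 down called by DESeq2. Their median log2 fold change was -0.01 between 21 mo and 18 mo and -0.05 between 21 mo/O304 and 21 mo. At an unadjusted p under 0.05 they numbered 1 up and 2 down, then 0 and 0. The shares over all genes tested were 26.1% and 20.7%, and DESeq2 called 14.3% of all genes between 21 mo and 18 mo. Gnas, the gene of the stimulatory G protein subunit that couples the receptor to adenylyl cyclase, was measured at 66.8, 65.4 and 68.3 CPM at 18 mo, 52.0, 31.6 and 31.4 CPM at 21 mo and 43.7, 38.7 and 34.2 CPM with O304. Its 18 mo libraries were tightly grouped above the other 6, with a log2 fold change of -0.80 (SE 0.20, edgeR adjusted p = 0.0760) between 21 mo and 18 mo and -0.78 (SE 0.20, edgeR adjusted p = 0.337) between 21 mo/O304 and 18 mo. Prkaca, a catalytic subunit of protein kinase A, had -0.43 (SE 0.12) and Creb1, a transcription factor that this kinase phosphorylates, 0.52 (SE 0.15) between 21 mo and 18 mo, with edgeR adjusted p = 0.0847 and 0.0887. Rab11a, which takes part in recycling aquaporin-2 vesicles, had 0.18 (SE 0.11). The levels in this list are those of bulk tissue and cannot be assigned to the collecting duct.

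A list of 10 further genes was taken for principal cells, the cells that carry aquaporin-2 and the sodium channel. How specific each gene is to these cells was not tested, so the counts below describe the list. At 21 mo, 9 of 10 were higher than at 18 mo, with a median of 0.35, and with O304, 9 of 10 were lower than at 21 mo, with a median of -0.51. At an unadjusted p under 0.05 these were 2 up and 0 down, then 0 up and 4 down, and edgeR called 0 after adjustment (DESeq2 called 1 up, then 1 down). Of all genes tested, 26.1% and then 20.7% had an unadjusted p under 0.05, and DESeq2 called 14.3% and then 6.16%. St6gal1, a sialyltransferase gene that is not restricted to this cell type, was measured at 15.6, 12.7 and 12.6 CPM, then 14.3, 34.1 and 78.0 CPM, and with O304 at 11.5, 18.0 and 17.8 CPM. Its 2 highest libraries were 21 mo replicates 2 and 3. Npnt, a matrix protein gene, and Hoxb7, a transcription factor gene of the ureteric bud lineage, had log2 fold changes of -0.62 and -0.56 with O304 against 21 mo (edgeR adjusted p = 0.176 and 0.182), and Elf5, a transcription factor gene with at most 3.92 CPM, had -2.68 (SE 0.99, edgeR adjusted p = 0.198).

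Intercalated cells are the acid-base transporting cells of the same duct. Of 13 of their genes, 11 were lower at 21 mo than at 18 mo, with a median of -0.67 and 0 up and 7 down at an unadjusted p under 0.05, and 10 were higher with O304 than at 21 mo, with a median of 0.43 and 4 up and 0 down. None was called after adjustment by edgeR, and DESeq2 called 5 lower at 21 mo than at 18 mo and 0 with O304. The shares over all genes were 26.1% and 20.7% at an unadjusted p under 0.05, and 14.3% and 6.16% for DESeq2's calls. Atp6v1g3, a proton pump subunit gene, had log2 fold changes of -0.67 (edgeR adjusted p = 0.0901) and 0.49 (edgeR adjusted p = 0.212) in these comparisons, Slc4a9, a basolateral anion exchanger gene, -0.72 and 0.53, Insrr, the gene of an alkali-sensing receptor, -1.66 and 1.20, and Hmx2, a transcription factor gene, -1.87 and 1.09. Against 18 mo, 11 of 13 were lower with O304, with a median of -0.20. Without 21 mo/O304 replicate 1 the medians with O304 were 0.19 against 21 mo and -0.46 against 18 mo, and without 21 mo/O304 replicate 2 the latter was -0.029, with 8 of 13 lower.

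Scnn1a, Scnn1b and Scnn1g encode the alpha, beta and gamma subunits of the sodium channel. Scnn1a lies at chr6:125320659-125344943. Scnn1g (chr7:121734479-121768475) and Scnn1b (chr7:121865038-121918514) are neighbours on the plus strand of chromosome 7, 96562 bases apart. Part of Scnn1b, 73.2% of its span, is covered by Cog7 on the other strand, and Cog7 had 684 to 978 counts per library, so some Scnn1b reads may have been assigned to neither gene or to Cog7.

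Scnn1a was measured at 111, 99.3 and 86.0 CPM at 18 mo, at 87.2, 75.6 and 175 CPM at 21 mo and at 149, 74.6 and 62.0 CPM with O304. A single mouse in each older group, 21 mo replicate 3 and 21 mo/O304 replicate 1, lay above all others, and the groups overlapped. Its log2 fold change was 0.19 (SE 0.38) between 21 mo and 18 mo and -0.24 (SE 0.38) with O304 against 21 mo.

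Scnn1b was measured at 31.0, 36.5 and 35.0 CPM at 18 mo, at 25.3, 41.2 and 40.5 CPM at 21 mo and at 32.9, 21.6 and 28.7 CPM with O304. Scnn1g was measured at 32.3, 33.9 and 33.6 CPM, at 28.6, 39.3 and 34.4 CPM and at 43.0, 26.6 and 34.2 CPM in the same groups. The groups of both genes overlapped in every comparison. Scnn1b ranged from 21.6 to 41.2 CPM over the 9 libraries. Scnn1g had the narrowest intervals of the 9 genes, from -0.37 to 0.45 between 21 mo and 18 mo and from -0.39 to 0.43 with O304 against 21 mo. For Scnn1b the log2 fold change with O304 was -0.36 against 21 mo (SE 0.21, edgeR adjusted p = 0.339) and -0.30 against 18 mo (SE 0.21, edgeR adjusted p = 0.699).

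Within each mouse, the ratio of beta to gamma subunit RNA did separate the O304 group. The FPKM ratio of Scnn1b to Scnn1g was 1.09, 1.22 and 1.18 at 18 mo, 1.00, 1.19 and 1.34 at 21 mo and 0.870, 0.922 and 0.952 with O304. All 3 O304 mice lay below the other 6, with a mean of 0.915 ± 0.0415 against 1.18 ± 0.167 at 21 mo and 1.16 ± 0.0699 at 18 mo (SD, n = 3, exact permutation p = 0.1 for each, adjusted 0.42 over 21 ratio comparisons). Such a lack of overlap was common: for the levels of single genes it held for 21.3% of all genes tested against 21 mo and 26.5% against 18 mo. The overlap of Scnn1b with Cog7 also bears on this ratio, and its part was not tested. The ratio of Scnn1a to Scnn1g ranged from 1.31 to 3.67 with no separation of groups. The genes most like Scnn1b over the 9 libraries were Mgat4b, Lzic, Hmga1, Clspn and Pigs (r from 0.93 to 0.95). Clspn rests on few counts, with a mean of 0.779 CPM over the 9 libraries and 0.239 CPM with O304.

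**Figure D5:**
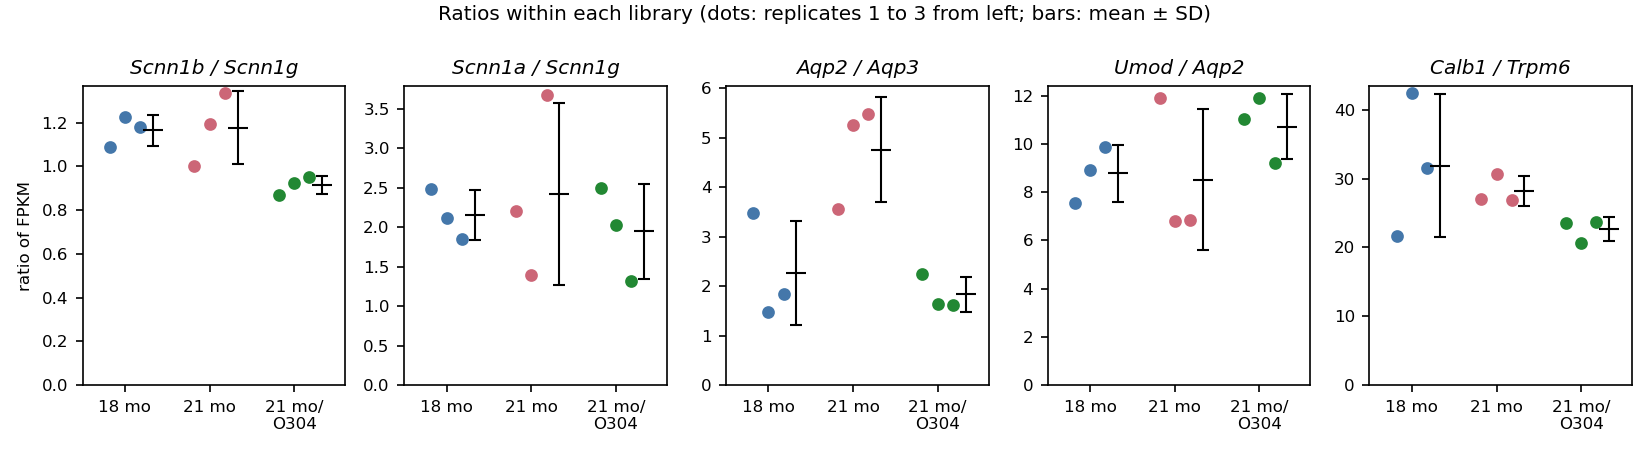
FPKM ratios of gene pairs within each library on linear axes from 0, with dots for replicates 1 to 3 and bars for the mean ± SD of each group (n = 3 mice). The Scnn1b to Scnn1g ratio is 0.870 to 0.952 in the O304 mice and 1.00 to 1.34 in the others, and the Aqp2 to Aqp3 ratio is 3.55 to 5.47 at 21 mo.

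Among 12 genes that regulate the sodium channel or respond to aldosterone, 0 were called by edgeR. At 21 mo, 8 were higher and 4 lower than at 18 mo (median 0.14), with 1 up and 2 down at an unadjusted p under 0.05. With O304 against 21 mo, 5 were higher and 7 lower, with a median of -0.37, and 0 up and 5 down had an unadjusted p under 0.05. DESeq2 called 5 of them, all lower. The unadjusted shares over all genes tested were 26.1% and 20.7%, and DESeq2 called 6.16% of all genes with O304 against 21 mo. Without 21 mo replicate 2 the medians were -0.058 between 21 mo and 18 mo and -0.061 with O304 against 21 mo. Sgk1, the kinase gene induced by aldosterone and glucocorticoids that keeps the channel at the membrane, was measured at 98.5, 137 and 105 CPM at 18 mo, 112, 186 and 183 CPM at 21 mo and 75.6, 102 and 76.6 CPM with O304. All O304 mice lay below all 21 mo mice, with a log2 fold change of -0.92 (SE 0.23, edgeR adjusted p = 0.175). Tsc22d3, the glucocorticoid-induced leucine zipper gene, had -1.09 (SE 0.30), and Per1, a clock gene that aldosterone induces, -0.74 (SE 0.17), each with an edgeR adjusted p of 0.175. Edn1, the gene of endothelin-1, which restrains sodium uptake in the duct, was measured at 1.61, 13.9 and 20.8 CPM at 21 mo and at 0.924 to 2.29 CPM in the other 6 mice. It was high in the 2 mice with high injury genes.

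Markers of cells outside these segments also differed between libraries. The summed CPM of 8 fibroblast genes was 164, 605 and 1513 at 21 mo against 127 to 311 in the other 6 mice. That of 8 immune genes was 455, 809 and 2434 against 162 to 369, with Lyz2, the lysozyme gene of myeloid cells, and Csf1r, the macrophage growth factor receptor gene, as the most abundant. Urothelial genes summed to 4.15, 52.2 and 213.5 CPM against 0.986 to 2.97, podocyte genes to 224, 217 and 652 CPM against 210 to 398, and endothelial genes to 343, 224 and 207 CPM against 252 to 560. The most abundant genes of these lists were Slc34a1 and Slc27a2 (proximal tubule), Podxl (podocyte), Emcn and Pecam1 (endothelium), Upk3a and Upk1b (urothelium), Col3a1 and Col1a2 (fibroblast), Fabp4 and Car3 (adipocyte), and Spp1 and Lcn2 (injury). Their part in the differences that involve the 21 mo group was not tested.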

How the data were processed

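The authors deposited 1 table with raw read counts and FPKM per gene for each library. Per the labels' processing notes, HISAT2 2.0.5, featureCounts 1.5.0-p3 and DESeq2 1.20.0 were used with GRCm38 (mm10), and the settings of strand and multiple mapping were not given in the sources used here. The deposited FPKM values were made by the authors from those counts and gene length. The table also holds the authors' own fold changes and p-values, which were not used.

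The members and the gene lists were chosen with earlier results of these data known. Counts were fitted in R 4.3.3 with edgeR 4.0.16: genes were kept by filterByExpr (minimum count 10, minimum total 15), scaled by TMM, and tested by the quasi-likelihood test over all 9 libraries with 3 group means, which left 6 residual degrees of freedom. P-values were adjusted by Benjamini-Hochberg over all 15902 genes of each contrast, with a threshold of 0.05. Single values were compared by two-sided exact permutation of 3 libraries against 3. CPM are TMM-normalized, and log2 CPM used a prior count of 2. Library totals were 15636378 to 18396725 counts, and intervals and floors cover counting or replicate error only.

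Alternatives were DESeq2 1.42.0, other scaling and filters, only the 6 libraries compared, a replicate block, limma 3.58.1 (voom with sample quality weights, and limma-trend on log2(FPKM + 1) or log2(FPKM + 0.1) where the mean FPKM reached 0.5) and leaving out each library. A covariate and the list counts under all alternatives were added after the data were seen. The fit was also tested on simulated data. The genes named were the 10 members, up to 4 genes of each segment or pathway list by the smallest unadjusted p in the first 2 comparisons, up to 2 of each list of other cells by mean CPM, and the 5 protein-coding genes most like Umod, Calb1, Aqp2 and Scnn1b by Pearson's r of log2 CPM. Slc12a3, S100g, Trpv5, Adipoq and Plin1 were added after their values were seen. All genes of the 15 lists were found in the table by symbol. Gene sequences were not used here, and some genes that the rule names are not reported here.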

Additional observations from a re-analysis of the deposited data

How the results depend on the processing

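Of the 10 genes 9 could be tested, and 0 were called by edgeR in each of the 3 comparisons. Between 21 mo and 18 mo, voom with sample quality weights called 4 (Umod, Calb1, Trpm6 and Aqp2). Between 21 mo/O304 and 21 mo, DESeq2 called 1 (Trpm6), voom 5 (the same 4 and Scnn1b), and leaving out 1 library gave 0 to 2, the 2 being Trpm6 and Scnn1b without 21 mo replicate 1. Between 21 mo/O304 and 18 mo, DESeq2, the fit of only the 6 libraries compared and voom each called 1, Trpm6. The voom weights in the 21 mo group were 0.22, 9.11 and 0.13, so that its calls rest largely on 21 mo replicate 2. Over all genes the calls of the 3 comparisons went from 3, 0 and 0 to 2262, 958 and 231 with DESeq2, 8409, 6528 and 415 with voom, 576, 17 and 0 with every gene of at least 1 count, and 4186, 3808 and 0 without 21 mo replicate 1. The fit of only the 6 libraries compared called 0, 0 and 22, and without 21 mo replicate 3 the counts were 130, 1 and 12. The causes were not tested.

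Several directions turned, among them that of Umod with O304 against 21 mo, reported as -0.92. Between 21 mo and 18 mo, the log2 fold change turned for Trpm6 with upper-quartile factors (0.019), for Aqp4 with every gene kept (0.0029) and voom (0.34), for Scnn1a with voom (-0.30), and with the thin limb covariate for Umod (-0.35), Calb1 (0.13), Trpm6 (0.032), Aqp2 (-0.44), Scnn1a (-0.042) and Scnn1g (-0.082). Leaving out 1 library gave -0.83 to 0.93 for Aqp4, -0.068 to 0.27 for Scnn1b, -0.51 to 0.13 for Calb1, -0.26 to 0.15 for Trpm6, -0.11 to 0.98 for Aqp2, -0.092 to 0.16 for Scnn1g and -0.29 to 0.39 for Scnn1a. With O304 against 21 mo, it turned for Scnn1g with upper-quartile factors (-0.0070) and voom (-0.21), for Aqp3 (-0.32) and Scnn1a (0.21) with voom, for Umod (0.028) and Scnn1a (0.031) with the covariate, and for Aqp4 with the replicate block (-0.54), voom (-1.04), log2(FPKM + 1) (-0.40) and log2(FPKM + 0.1) (-0.79). Leaving out 1 library gave -0.18 to 0.17 for Scnn1g, -0.24 to 0.27 for Aqp3, -2.26 to 1.09 for Aqp4 and -0.74 to 0.23 for Scnn1a. Against 18 mo, Aqp4 turned with the replicate block (-0.80), voom (-0.70), log2(FPKM + 1) (-0.43) and log2(FPKM + 0.1) (-0.84), and leaving out 1 library gave -0.53 to 0.19 for Scnn1a, -2.27 to 1.20 for Aqp4 and -0.13 to 0.22 for Scnn1g. The median over the 9 genes with O304 went from 0.02 to -0.52 against 21 mo and from -0.05 to -0.53 against 18 mo without 21 mo/O304 replicate 1. In all, 476 of the log2 fold changes under the alternatives kept their direction and their side of the threshold, 49 turned and 15 passed the threshold only there.

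The replicate numbers did not pair the samples: deviations of same-numbered libraries correlated between -0.13 and 0.17, and 4 of 9 libraries correlated best with their own number. With the number as a block, 0 of the 9 genes and 0 of all genes were called in the 3 comparisons. With 3 mice a group, the 95% interval of the log2 fold change with O304 against 21 mo ran from -1.99 to 0.15 for Umod and from -2.58 to 3.11 for Aqp4.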
